A study of Caenorhabditis elegans with 2 samples.

Results

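Cytosolic ribosomal protein genes of C. elegans were taken by symbol, as every gene of the WBcel235 annotation named rps- or rpl- followed by a number. This gave 78 of the 19973 nuclear protein-coding genes, with 31 for the small subunit and 47 for the large subunit. The symbols decided which genes are in the group, but the group itself was picked with earlier results of these data known. The study mapped FAX-1 by ChIP-seq, which recovers and sequences the DNA fragments that an antibody pulls down with a chromatin protein. The hermaphrodites of strain OP164 carried a stably inherited transgene for FAX-1 with a C-terminal GFP-FLAG tag, and an antibody against GFP was used on whole late embryos, 4 h after synchronization by egg bleaching. There was 1 group with 2 biological replicates and no contrast, so no difference between conditions could be tested, and values are given side by side with those of all genes.

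A ribosome is built from a small subunit, which reads the mRNA, and a large subunit, which joins amino acids. Their proteins are needed in fixed proportions, and their genes are among the most strongly transcribed of growing cells. FAX-1 is a nuclear hormone receptor known for its part in axon guidance and in the identity of interneurons, so ribosomal protein genes are not among the genes for which it is known. Many worm mRNAs receive a spliced leader after transcription, and for these an annotated 5′ end can lie downstream of the place where transcription began. Whole embryos were used, so binding in a few cells and weak binding in many cannot be told apart. A control file entered the authors' pooled peak call, but neither it nor an untagged strain was analysed here, and enrichment of these promoters without FAX-1 was not tested.

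The authors deposited a loose peak list for each replicate (15446 and 18555 rows), a loose list for the pooled replicates (13841 rows) and a final list of 830 rows filtered for reproducibility. A region of the pooled list is called a candidate, and a final region if it overlapped the final list by at least 1 bp. Signals are in the peak caller's units, a scale that no label or file header states. They started at 31.6 in the pooled list and at 98.3 in the final one, and each replicate's list had a lower floor of its own. Signals are therefore compared within a list, and ranks, with 1 the strongest, between lists. Read depth was not given, so no interval is attached to a signal.

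The windows below show the DNA under 10 of the final summits. Those at rps-19, rps-20, rps-26 and rpl-22, each closer to a neighbour's start, are not printed. They are shown because short sequences recur among them, and because the pair at rps-24 holds copies of a repeat. Each runs 5′ to 3′ on the strand of its gene, from the RefSeq sequence of WBcel235 (ce11), and is 151 bases centred on the summit, except the rpl-12 window, which was trimmed to 97 bases to leave out an untranslated region. Capitals mark a 24-base inverted repeat in the 2 rps-24 windows. In the others capitals mark the letters GGCCTAA or CTACGGT. Windows with no capitals are printed for comparison.
rps-24, distal summit, chrIV:385209-385359, plus strand: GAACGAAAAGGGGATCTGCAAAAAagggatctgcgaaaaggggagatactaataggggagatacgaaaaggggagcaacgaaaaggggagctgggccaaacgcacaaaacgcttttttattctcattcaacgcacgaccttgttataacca
rps-24, proximal summit, chrIV:385470-385620, plus strand: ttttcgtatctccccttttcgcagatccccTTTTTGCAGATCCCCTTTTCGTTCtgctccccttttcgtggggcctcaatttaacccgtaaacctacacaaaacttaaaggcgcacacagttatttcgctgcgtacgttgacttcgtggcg
rpl-3, chrIII:3867501-3867651, plus strand: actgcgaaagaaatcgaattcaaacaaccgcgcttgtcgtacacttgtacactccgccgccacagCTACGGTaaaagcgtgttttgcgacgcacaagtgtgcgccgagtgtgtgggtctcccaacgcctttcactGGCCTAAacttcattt
rpl-15, chrIV:654840-654990, minus strand: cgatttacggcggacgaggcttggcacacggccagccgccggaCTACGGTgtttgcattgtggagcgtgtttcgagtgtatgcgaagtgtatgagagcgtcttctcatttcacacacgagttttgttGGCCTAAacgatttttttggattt
rpl-12, chrIV:13240652-13240748, minus strand: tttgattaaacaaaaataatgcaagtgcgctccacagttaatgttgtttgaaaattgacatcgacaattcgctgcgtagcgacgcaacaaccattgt
rps-28, chrIV:1659179-1659329, plus strand: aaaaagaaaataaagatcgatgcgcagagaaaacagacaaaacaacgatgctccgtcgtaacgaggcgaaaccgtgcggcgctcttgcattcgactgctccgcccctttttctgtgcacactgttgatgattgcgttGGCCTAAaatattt
rpl-35, chrIII:7854610-7854760, plus strand: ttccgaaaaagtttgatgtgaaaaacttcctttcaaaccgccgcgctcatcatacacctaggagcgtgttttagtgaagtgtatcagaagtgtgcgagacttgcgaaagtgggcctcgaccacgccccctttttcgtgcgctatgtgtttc
rps-1, chrIII:4475574-4475724, plus strand: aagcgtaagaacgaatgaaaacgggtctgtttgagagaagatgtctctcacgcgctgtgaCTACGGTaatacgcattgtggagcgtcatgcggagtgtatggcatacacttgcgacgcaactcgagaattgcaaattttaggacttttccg
rps-23, chrIV:12391255-12391405, minus strand: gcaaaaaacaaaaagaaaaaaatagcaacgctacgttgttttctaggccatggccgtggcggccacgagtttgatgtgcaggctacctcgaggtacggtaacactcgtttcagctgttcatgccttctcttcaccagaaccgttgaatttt
rpl-20, chrIV:4749989-4750139, minus strand: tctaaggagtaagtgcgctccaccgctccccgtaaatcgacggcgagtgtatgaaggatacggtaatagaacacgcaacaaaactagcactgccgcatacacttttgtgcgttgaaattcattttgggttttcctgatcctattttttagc

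Of the 78 ribosomal protein genes, 48 (61.5%) were the nearest gene start, within 5000 bp, to 1 or more of 60 candidates. Over all nuclear protein-coding genes the share was 38.4%. Final regions were assigned to 7 of the 78 (8.97%), against 3.5% of all genes. The small subunit had 20 of 31 genes with a candidate and 3 with a final region, and the large subunit had 28 of 47 and 4. Among genes with a candidate, the median of the strongest signal was 51.3 for the 48 ribosomal protein genes and 43.2 for the 7678 genes of all kinds. The 8 final regions at ribosomal protein genes had a median signal of 231.1, and all 723 final regions within 5000 bp of a gene start had one of 138.3.

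The small-subunit gene rps-24 (WBGene00004493) had the strongest regions of the set, and it alone had 2 final ones. The distal region, with its summit 603 bp upstream of the gene, had a pooled signal of 364.9 and rank 55, and the proximal region, 342 bp upstream, had 328.3 and rank 72. Replicate 1 gave them signals of 229.7 and 194.0 (ranks 60 and 92). In replicate 2 both overlapped 1 row, with a signal of 135.7 and rank 46, so that replicate does not separate them. The summits lay 261 bp apart, and the 24-base repeat in their windows had 60 copies in the nuclear genome. Stretches of 36 letters that recur elsewhere in the genome made up 23.2% and 35% of these 2 regions and 0% of the other 6 final regions. The effect of the repeat on read placement was not tested.

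The other small-subunit genes with an assigned final region were rps-28 and rps-1, both of which encode proteins that in other eukaryotes sit near the site where mRNA leaves the small subunit. The rps-28 region (WBGene00004497) lay 437 bp upstream with a pooled signal of 190.9. Its replicate signals were 145.6 (rank 158) and 40.3 (rank 713), the widest spread in rank among the 8 regions. The rps-1 region (WBGene00004470) lay 269 bp upstream with a pooled signal of 133.3, and replicate signals of 91.1 (rank 416) and 46.1 (rank 544). It was the weakest of the 8 in the pooled list.

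In the large subunit, rpl-3 (WBGene00004414), whose yeast counterpart reaches the peptidyl transferase centre, had a final region 278 bp upstream with a pooled signal of 252.4. Its replicate signals were 171.3 (rank 119) and 80.7 (rank 172). The rpl-15 region (WBGene00004427), 339 bp upstream, had a pooled signal of 246.2 and replicate signals of 166.1 (rank 126) and 81.9 (rank 169). These 2 regions were thus nearly level in both replicates. The rpl-12 region (WBGene00004424), at the gene for a protein of the stalk base where translation factors bind, had a pooled signal of 216.0 and replicate signals of 142.3 (rank 168) and 70.0 (rank 216). Its summit lay 22 bp upstream, the closest of the 8 to a start. The rpl-35 region (WBGene00004449), at the gene for a protein beside the exit of the peptide tunnel, lay 449 bp upstream. Its pooled signal was 154.0, with replicate signals of 111.0 (rank 276) and 44.0 (rank 594). All 8 summits fell upstream of their gene in intergenic DNA, and all 8 regions were among the strongest 830 rows of both replicates. The final list was filtered for reproducibility, so high ranks in both replicates were selected for. All 723 final regions within 5000 bp of a gene start were in both replicates' lists.

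**Figure D1:**
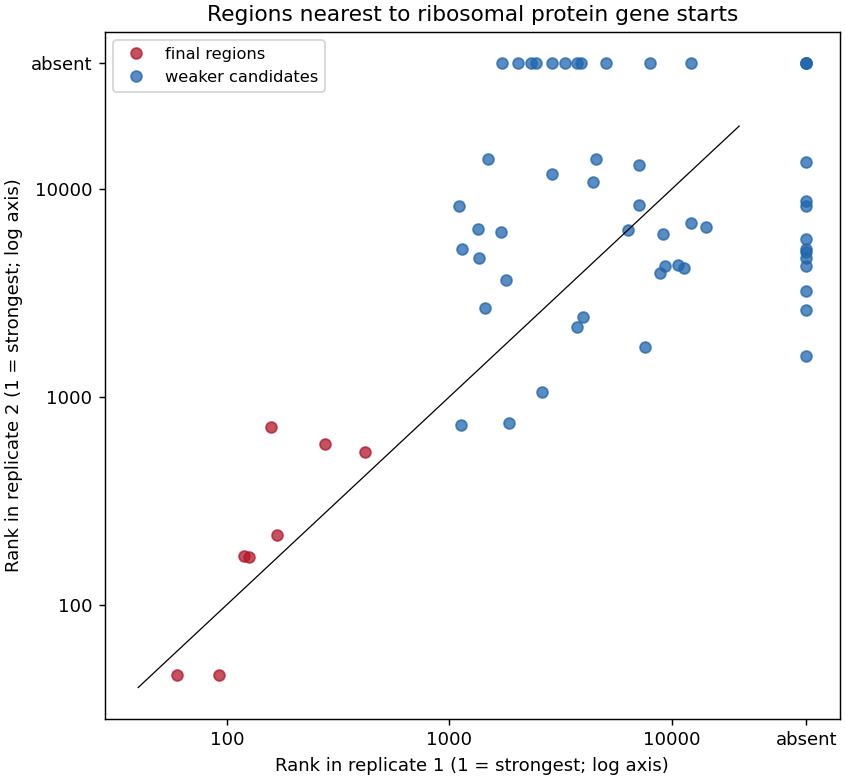
Rank of each of the 60 candidates nearest to a ribosomal protein gene in replicate 1 (x axis) and replicate 2 (y axis), both on log axes with 1 the strongest. Points on the edges marked absent overlap no row of that replicate, and the line marks equal ranks. The 8 final regions (red) rank between 46 and 713 in both lists, and the weaker candidates (blue) spread widely.

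Not every candidate was found in both replicates. Of the 60 regions, 35 (58.3%) were in both replicates' lists, 11 in that of replicate 1 only, 11 in that of replicate 2 only and 3 in neither. Over all candidates within 5000 bp of a start, 50% were in both. None of the 35 shared regions differed by more than 10-fold in rank. The nearest to that bound was at rpl-19, ranked 1496 in replicate 1 and 13854 in replicate 2.

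The strongest candidates below the final list were at rpl-24.2 (88.3), rpl-1 (81.5), rps-21 (74.6), rpl-24.1 (74.3), rpl-38 (72.7), rpl-7A (71.7), rps-17 (68.3), rpl-19 (64.9), rpl-39 (64.5) and rpl-11.2 (63.7), given as pooled signals. Their ranks in the pooled list ran from 999 to 2030. The rpl-24.2 gene, whose yeast relative is an assembly factor of the large subunit, had a summit 139 bp upstream and replicate ranks of 1127 and 732. The authors' final list on the ce10 build has 999 rows. Its weakest row had the same chromosome and a signal within 0.01% of that of the rpl-24.2 candidate. Under the same limit a match was recorded for every assigned final region except that at rpl-3. The rpl-1 region, at the gene for the protein of the mobile stalk beside the tRNA exit site, ranked 1853 and 747. The rps-21 region ranked 2598 and 1053. These 3 ranked higher in replicate 2, and the other 7 ranked higher in replicate 1.

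Candidates assigned to ribosomal protein genes were near genes for small RNAs about as often as other candidates. Those at rpl-24.1 and rpl-7A had a summit within 500 bp of a tRNA, snoRNA, snRNA or rRNA gene, at 370 and 359 bp from a snoRNA gene. That was 2 of 60 (3.33%), against 3.92% of all candidates within 5000 bp of a start. Among regions within 500 bp of a gene's own start, whichever gene was nearest, 4 of 56 at ribosomal protein genes (7.14%) were so placed, against 86 of 3396 (2.53%) at all genes. Of the 8 final regions 0 were so placed, against 26.1% of all final regions. Several ribosomal protein genes carry snoRNA genes in their introns. Of the 13 that hold a snoRNA gene, 9 had a candidate within 500 bp of their own start and 2 a final one, against 49 and 11 of the 65 without.

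The assignment to the nearest start hides ribosomal protein genes that share a promoter region with a neighbour. Counting was therefore repeated from each gene's own start, whichever gene was nearest to the summit, a view added after the data were seen. A candidate summit lay within 500 bp of the start of 58 of the 78 genes (74.4%), against 19.8% of all genes. A final region did so at 13 (16.7%), against 2.64%. The small subunit had 25 of 31 genes with a candidate and 7 with a final region, and the large subunit 33 of 47 and 6. The 58 genes used 56 distinct regions, because rps-30 shared one with rpl-39 and rps-10 one with rpl-24.1. In 18 of the 58 the nearest start was that of a neighbour on the opposite strand. A summit between divergent genes cannot be assigned to either. Some summits nearest to a ribosomal protein gene also lay within 500 bp upstream of a second gene's start. Among assigned final regions these were at rpl-12 (lin-54, 371 bp), rpl-15 (K11H12.8, 475 bp) and rps-1 (ifet-1, 499 bp). At the other assigned final regions the next start was more than 500 bp away.

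**Figure D2:**
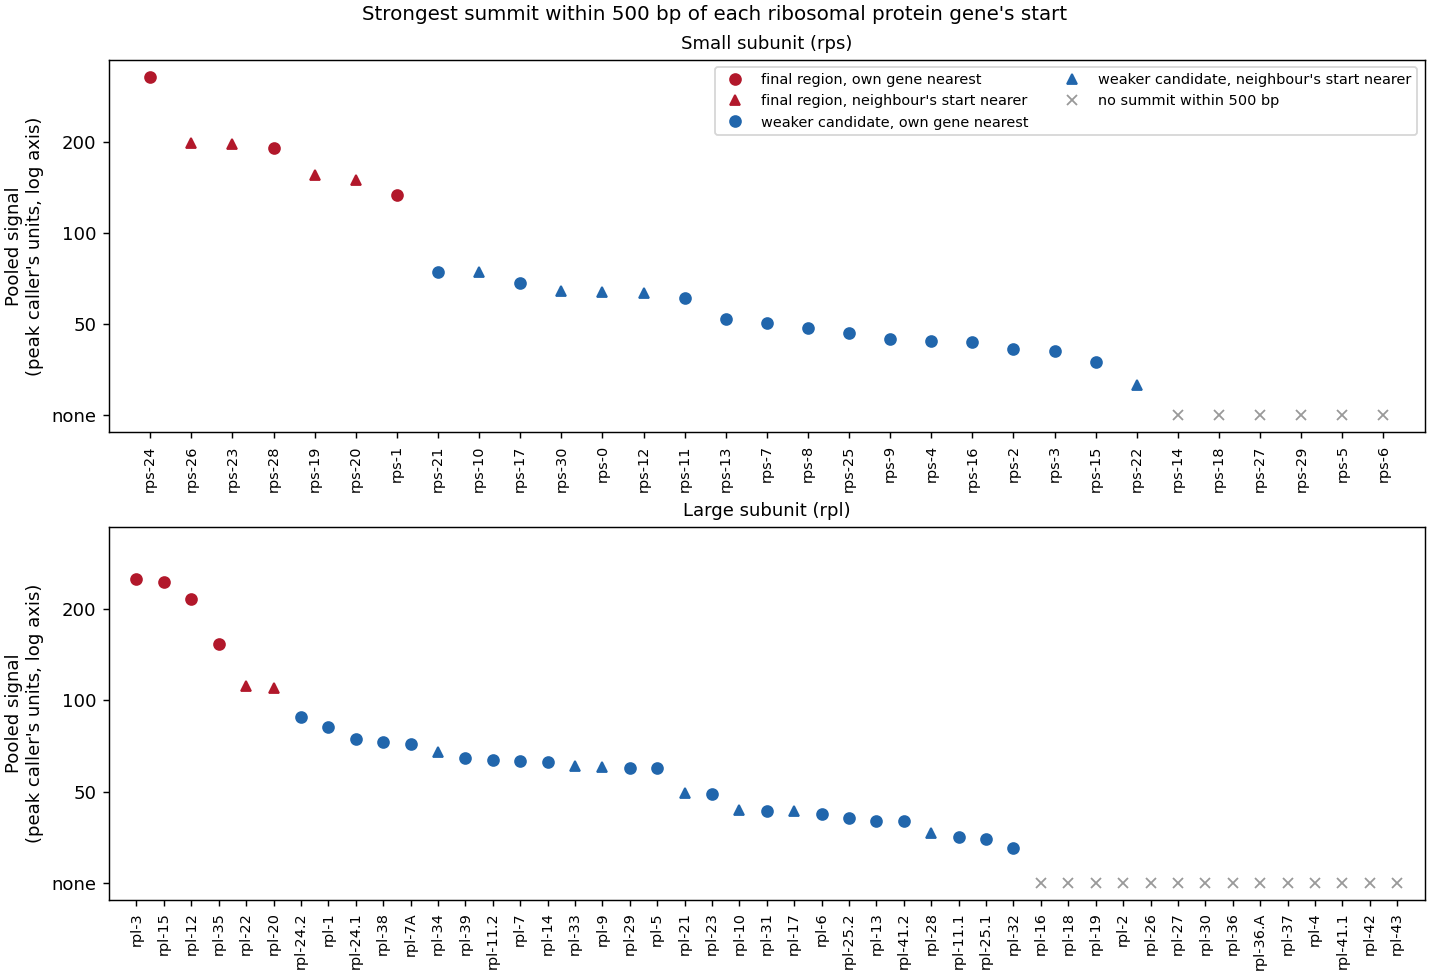
Pooled signal (log axis, peak caller's units) of the strongest summit within 500 bp of the start of each of the 78 ribosomal protein genes, by subunit and in descending order. Red marks the 13 genes with a final region, triangles mark summits closer to a neighbour's start, and grey crosses, placed below the scale, mark the 20 genes with no such summit. The strongest value shown is 328.3 at rps-24.

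This view added 6 genes with a final region. The strongest was at rps-26, which encodes a protein at the mRNA exit channel, with a pooled signal of 199.1 and ranks of 181 and 256 in replicates 1 and 2. Its summit lay 407 bp upstream of rps-26 and 50 bp from the start of tmem-107, a gene for a ciliary transition zone protein, and it was the only 1 of the 13 within 500 bp of a small RNA gene (111 bp). At rps-23, which encodes a protein of the decoding centre, the signal was 196.9 with ranks of 203 and 280, at 277 bp upstream of the gene and 257 bp from dpm-3. The rps-19 region had a signal of 155.7 and ranks of 426 and 345, at 299 bp upstream and 146 bp from hsr-9. The rps-20 region had a signal of 149.6 and ranks of 281 and 722, at 239 bp upstream and 158 bp from ekl-4. In the large subunit, rpl-22 had a signal of 111.2 and ranks of 492 and 2033, at 276 bp upstream and 161 bp from ify-1, the gene for securin. The rpl-20 region had a signal of 109.7 and ranks of 559 and 1194, at 286 bp upstream and 176 bp from Y17G9B.5. The rpl-22 and rpl-20 regions were outside the strongest 830 rows of replicate 2, while the other 4 were inside them in both replicates.

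The other 12 summits that lay closer to a neighbour belonged to rps-0, rps-10, rps-12, rps-22, rps-30, rpl-9, rpl-10, rpl-17, rpl-21, rpl-28, rpl-33 and rpl-34. Under the nearest-start rule, the genes with no candidate were rps-0, rps-6, rps-10, rps-12, rps-20, rps-22, rps-23, rps-26, rps-27, rps-29 and rps-30 in the small subunit. In the large subunit they were rpl-2, rpl-4, rpl-10, rpl-16, rpl-18, rpl-20, rpl-22, rpl-26, rpl-27, rpl-28, rpl-30, rpl-33, rpl-34, rpl-36, rpl-36.A, rpl-37, rpl-41.1, rpl-42 and rpl-43. Of these 30 genes, 14 had a summit within 500 bp of their own start and 16 had none by either count. For those 16, no region of the loose call had its summit within 500 bp of the start or was assigned to the gene.

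The strongest summits of ribosomal protein genes tended to lie farther upstream than those of other genes. Of the 58 genes, 55 (94.8%) had their strongest summit upstream of the start, and 48 (82.8%) had it 150 to 450 bp upstream. Among the 3896 other genes with a summit within 500 bp, 69.1% were upstream and 42.9% in that band, whose limits were set after the data were seen. Among the 515 other genes with a final region, 91.3% were upstream and 60.2% in the band. The median position was 278 bp upstream (quartiles 341 and 191 bp) for ribosomal protein genes. For other genes it was 133 bp upstream, with quartiles at 267 bp upstream and 67 bp downstream. For other genes with a final region it was 187 bp upstream (quartiles 282.5 and 104.5 bp), a spread close to that of ribosomal protein genes. The 3 genes with their strongest summit downstream of the start were rps-9 (161 bp), rps-16 (128 bp) and rps-15 (376 bp), with signals of 44.9, 43.7 and 37.5.

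**Figure D3:**
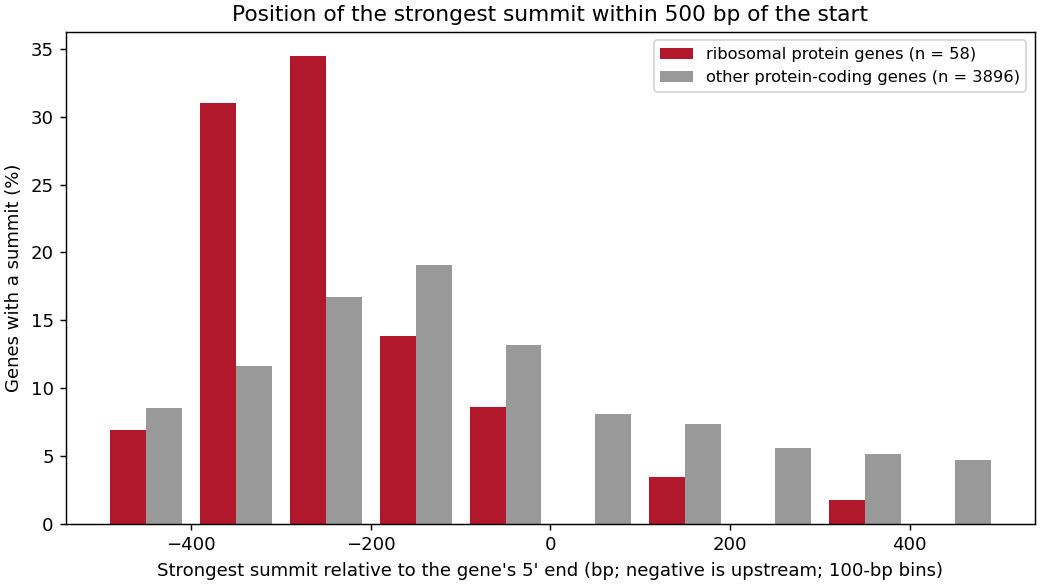
Share of genes (y axis, percent) by the position of their strongest summit relative to the annotated 5′ end (x axis, bp, 100-bp bins, negative upstream), for 58 ribosomal protein genes (red) and 3896 other protein-coding genes (grey) with a summit within 500 bp. Ribosomal protein genes peak at 200 to 400 bp upstream, and the other genes at 100 to 200 bp upstream.

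The distances of the assigned regions had a wider spread. Of the 60, 42 (70%) had their summit within 500 bp of the start, against 31.5% of all candidates. Inside the 5000 bp limit, the farthest were at rps-4 (3560 bp upstream, signal 44.9) and rpl-21 (3127 bp downstream, 52.8). Just outside it lay candidates at rps-25 (5633 bp upstream, 65.4) and rpl-3 (5754 bp downstream, 73.6). There were 9 genes with more than 1 candidate, and rpl-11.2, on the X chromosome, had the most with 4, of signals 63.7, 41.4, 33.9 and 32.2.

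Ribosomal protein genes with a summit near their own start were found on all 6 chromosomes. The share ran from 60% on chromosome II to 82.4% on IV among chromosomes with 8 or more of the genes, and from 13.4 to 26.8% for all genes. Final regions were at 6 of 17 genes on IV (35.3%), 3 of 18 on III, 3 of 23 on I and 1 of 10 on II. Over all genes the shares were 2.62% on IV, 4.17% on III, 3.96% on I and 2.64% on II. Chromosomes V and X, with 8 and 2 of the genes, had 0, where the shares over all genes were 1.72% and 1.5%. By the nearest-start rule, the 7 genes with a final region were 4 on IV and 3 on III.

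**Figure D4:**
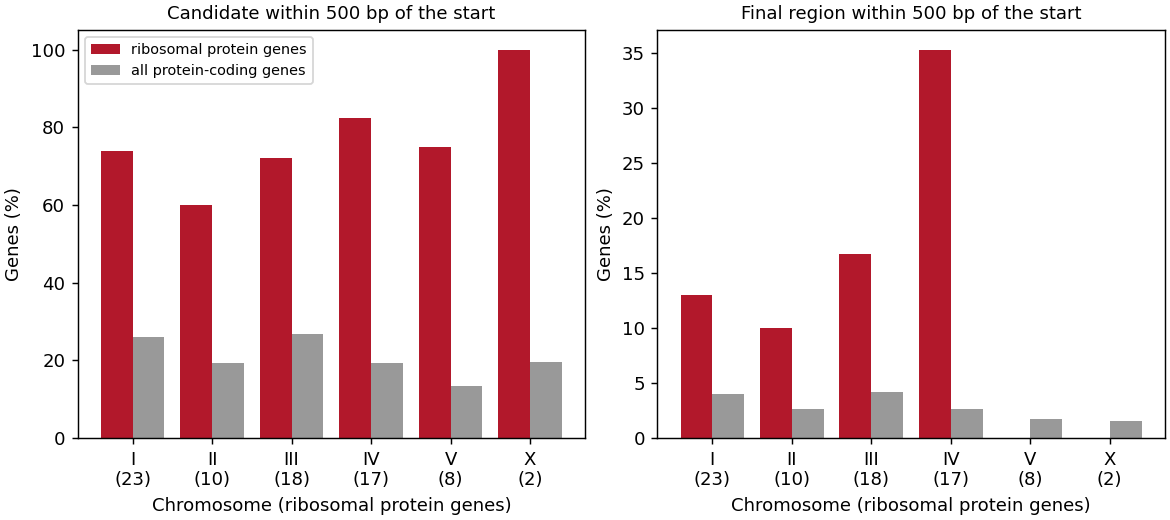
Share of genes (y axes, percent) with a candidate (left) or a final region (right) within 500 bp of their own start, by chromosome, for ribosomal protein genes (red) and all protein-coding genes (grey). The numbers in brackets count the ribosomal protein genes. On every chromosome the left share is higher for ribosomal protein genes, while the right share is 0 on V and X, where there are 8 and 2 of them.

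Other genes of the translation apparatus, in lists chosen with earlier results of these data known, were counted the same way. Of 41 translation factors named, 36 matched a symbol of the annotation. Of these 36, 24 (66.7%) had a candidate within 500 bp of their own start and 6 (16.7%) a final region. Over all genes the shares were 19.8% and 2.64%. The 6 were eif-3.E (282.5), erfa-3 (194.9), eif-3.C (184.8), eif-3.B (170.1), eef-1A.1 (116.0) and ife-4 (106.8), which include subunits of an initiation complex, a release factor and an elongation factor. By the nearest-start rule eif-3.I also had a final region (313.0). Of 28 genes named under ribosome assembly and rRNA synthesis, 25 matched. Of these 25, 14 (56%) had a candidate and 2 (8%) a final region. These were fib-1 (311.9), the gene for the nucleolar methyltransferase fibrillarin, and rpoa-12 (106.8), for a subunit of RNA polymerase I. By the nearest-start rule larp-1 (126.3), which was placed in this list by choice and not by a test of its function, had one too. Of 6 ribosomal proteins with other symbols, 3 had a candidate, and rack-1 (99.7), the gene for a scaffold protein on the small subunit, had a final region. The median position of the strongest summit near the start, negative being upstream, was -219 bp for the translation factors. It was -122.5 bp for the assembly list and -223 bp for the ribosomal proteins with other symbols. The differences between these lists and the ribosomal protein genes were not tested.

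Letters of 9 short sequences, most of them sites of known factor families, were searched in the 60 windows of 151 bp on both strands. The nuclear receptor half-site AAGTCA was in 4 windows (6.67%), against 5.06% of 12691 windows over all nuclear candidates and 3.32% of 783 final ones. AGGTCA and AAAGTCA were each in 1 (1.67%), against 4.13% and 2.18% of all windows and 4.98% and 1.53% of final ones. The second of these contains the half-site. The repeat GAGAGA was in 13 (21.7%), against 17.1% of all windows and 24.9% of final ones. TATAAA was in 10 (16.7%), against 16% of all windows and 9.45% of final ones. TGATAA was in 6 (10%), against 9.26% and 4.47%. TAATTA was in 4 (6.67%) and CACGTG in 2 (3.33%), against 8.05% and 2.99% of all windows and 4.34% and 2.55% of final ones. GTTCGANNC, the letters of a tRNA gene's internal promoter, was in 1 (1.67%), against 2.47% of all windows and 14.6% of final ones. Of the 8 final windows at ribosomal protein genes, AAGTCA and GAGAGA were each in 1 and the other sequences in 0. Their GC content was 47.6%, and that of all final windows 46.7%.

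Sequences of 7 letters shared by the 151-bp summit windows of at least 3 of the 7 genes with an assigned final region were then listed. There were 29. Of these, 14 were at least as frequent in the 500 bp upstream of the other 71 ribosomal protein genes as upstream of all genes, and the rest were rarer there, down to AGTGTAT in 1.41% against 5.45%. The 2 described next were chosen after their values were seen, as those with the highest ratio between these shares. GGCCTAA was in the 500 bp upstream of 23 of the 78 genes (29.5%), on either strand, against 2.93% of the promoters of all genes. Among the 71 other ribosomal protein genes it was in 19 (26.8%). CTACGGT was in 16 of the 78 (20.5%) and in 13 of those 71 (18.3%), against 2.57% of all promoters. Neighbours that share a promoter region share its letters, and neither sequence contains the other. In the printed windows both are present at rpl-3 and rpl-15, GGCCTAA alone at rps-28 and CTACGGT alone at rps-1. At rpl-22, whose window is not printed, CTACGGT lay 57 bp from the summit.

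Their positions relative to the summit differed. For GGCCTAA, 21 matches lay in promoters with a summit within 500 bp of the start, and 12 of them (57.1%) lay 40 to 90 bp from the summit on the side of the gene, a band set after the values were seen. In other genes 11 of 171 matches (6.43%) did. At rpl-3, rps-28 and rpl-15 the distances were 63, 65 and 55 bp, and at rpl-7 and rpl-21, which have weaker candidates, 66 and 65 bp. The matches at rpl-3, rps-28 and rpl-15 lay in windows used to list the sequence, so they were near the summit by selection. They are counted in the 12, and matches in other genes had no such selection. Of those 12, 9 read GGCCTAA on the strand of the gene. For CTACGGT, 11 of 14 matches (78.6%) lay within 50 bp of the summit on either side, against 44 of 121 (36.4%) in other genes. At rpl-3 and rps-1 it lay 7 and 12 bp on the far side of the summit, and at rps-11 and rpl-14, with weaker candidates, 3 and 8 bp toward the gene. The 11 include the matches at rpl-3, rpl-15 and rps-1, which lay in windows used to list the sequence and so were near the summit by selection. A match describes letters only, and no protein is assigned to either sequence.

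**Figure D5:**
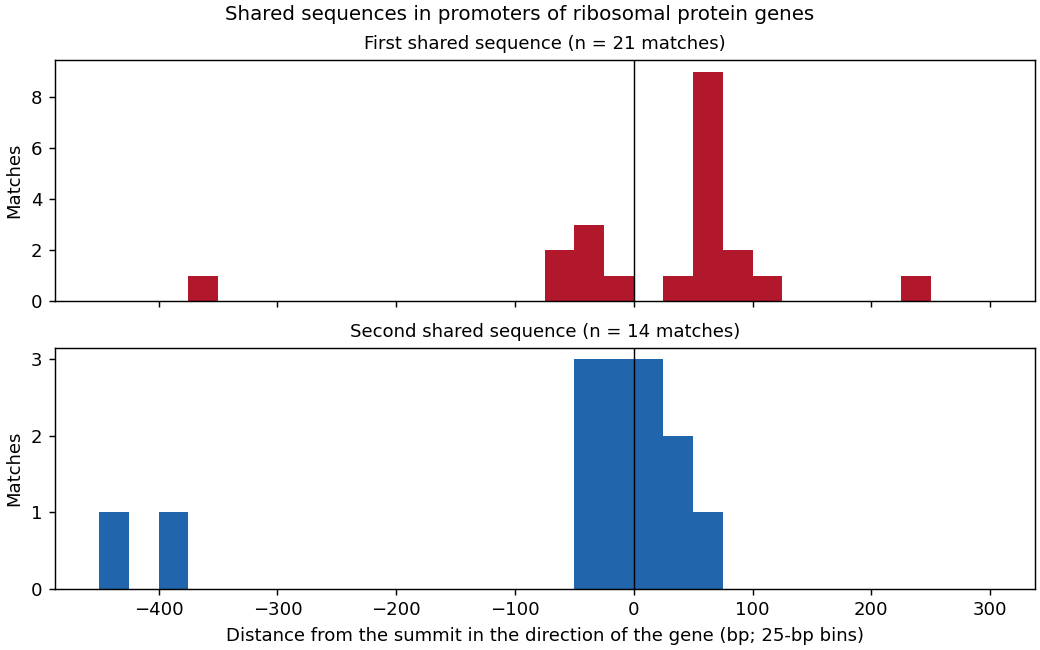
Number of matches (y axes) by distance from the strongest summit toward the gene (x axis, bp, 25-bp bins) for the 2 shared 7-letter sequences in promoters of ribosomal protein genes, the first in the upper panel (21 matches) and the second in the lower one (14 matches). The vertical line marks the summit. The first collects 40 to 90 bp on the gene's side and the second within 50 bp of the summit. Matches in the windows used to list each sequence, near the summit by selection, are included.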

How the data were processed

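Late embryos of 1 group with 2 biological replicates, per the labels, were profiled by ChIP-seq against a GFP-tagged FAX-1. The authors deposited narrowPeak lists on ce11 and ce10, derived from alignments plus 1 further file, per the deposited metadata text. The score used here is the signal value column of those lists, as deposited. For aligner, peak caller, depth and reproducibility threshold, names and values were not given in the sources used here. Deposited columns left unassigned numbered 0. From the ce11 lists, overlapping rows were merged and represented by their strongest row, and summits were assigned to the nearest 5′ end of a nuclear protein-coding gene (Ensembl release 115) within 5000 bp. Ranks come from each list, and a replicate's value is that of its strongest row overlapping the candidate by at least 1 bp. Positions on ce10 were not converted. Python 3.11.15, pandas 2.3.3 and numpy 2.4.6 were used. The assignment and merging steps were tested on simulated data. No test was run, because the series has 1 group and no contrast. The members and lists were chosen with earlier results of these data known. Named in full are all genes with a final region, the 10 with the strongest other candidate, those over 10-fold apart in rank, and genes of the other lists with a final region, or failing that their 3 strongest. Others are named for their distance or sequence and were chosen after their values were seen. The alternatives are other distances, overlaps and windows, single replicates, and exclusion of small RNA genes.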

Additional observations from a re-analysis of the deposited data

How the results depend on the processing

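Of 50 recomputed values, other than motif counts, 45 stayed within 1.5 times the value reported (for the median signal, within its order-statistic interval). The 5 that moved all came from narrower or wider distances. Shares over all genes were not recomputed under these alternatives. Whether the difference from all genes holds under them was therefore not tested. Within 250 bp in place of 500 bp, 21 ribosomal protein genes had a candidate at their own start and 2 a final region, and 18 assigned candidates lay near a start in place of 42. Within 100 bp of a small RNA gene there were 0 candidates, and within 1000 bp there were 7, in place of 2. From a single replicate's own list, with its strongest 830 rows in place of the final list, 46 genes had a candidate in each and 7 to 9 a final region (8 to 9 regions). At the gene's own start 53 to 54 had a candidate and 12 to 13 a final region, and the median percentile of the strongest candidate ran from 18.6 to 24.1, with 25.3 in the pooled list, lower being stronger. Without regions at tRNA and small RNA genes, 53 genes had a candidate at their own start and 12 a final region. Of 18 motif counts in other windows, 9 stayed within 1.5 times. The view from a gene's own start and the ce10 limit, the lowest signal of the ce10 final list, were added after seeing the data. With that limit 7 genes had a final region, and 13 had one at their own start. The rpl-24.2 candidate (88.28869) fell just under the limit (88.289063), so this alternative could not add it. No paired analysis was possible because there is 1 group. The deposited lists give no read counts, so depth set no interval, and a region absent from a list may lie just under its floor.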
